A study of Drosophila melanogaster with 10 samples.

Results

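Trl, psq, lola, and lolal are Drosophila genes whose proteins carry a BTB domain, and their accessible sites were taken from a list of ATAC-seq summits made in S2 cells, an embryo-derived Drosophila line. In ATAC-seq, Tn5 transposase cuts open chromatin, and a summit is the base with locally the most signal in a peak, which can hold several. The genes were chosen by symbol in the RefSeq gene table of the dm6 assembly, and all summits inside each gene or up to 2000 bp beyond either annotated boundary were used. This gave 116 of the 39806 summits of the list, a share of 0.291%, in 4 of 13922 protein-coding genes on the arms 2L, 2R, 3L, 3R, X, and 4. By gene, lola had 52 summits, psq 42, Trl 15, and lolal 7.

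The study treated S2 cells for 5 days with dsRNA at 10 µg/mL and sequenced 10 libraries, from 2 replicate treatments of each of 5 targets. The dsRNAs were directed against LACZ (the control, a bacterial gene), GAF, BAP170, NURF301, and NURF301 together with BAP170. All groups share the cell line and the serum-free dsRNA soak. Peaks were called once on all libraries together, so the list holds no value for a single library or condition, and the effect of GAF RNAi on any site below was not measurable from it. Each summit has a score, −log10 of its q value, which was used only to compare sites within the list. Scores run from 1.30 to 80130 with a median of 21.9, and a score of 175 or more places a summit in the top 10% of the list. Read depth is unknown, no interval can be given for a score, and the cell line label could not be checked against marker genes because the list holds no expression values.

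Trl (Trithorax-like) encodes GAF, the GAGA factor, which binds GAGAG elements through its zinc finger and is known for keeping promoters accessible, recruiting chromatin remodelers, and favoring paused RNA polymerase II. The BTB domain at the N terminus of such proteins lets them pair with each other and form oligomers. Pipsqueak, the product of psq, binds GAGAG elements through a different DNA-binding domain and has been linked to Polycomb group silencing. The lola gene joins a shared BTB exon to many alternative zinc finger ends and is known for its part in axon guidance, while lolal (also batman) encodes a small protein that is little more than a BTB domain and that binds GAF.

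Trl occupies 13121 bp on arm 3L of dm6, between 14747929 and 14761049, and has 10 RefSeq transcripts. It shares its lower boundary with CG42507, a protein-coding gene that runs to 14757962, and its last 530 bp overlap Tsen34, named for a tRNA splicing endonuclease subunit. The gene ome ends 60 bp below it. The table gives neither strand nor exons, so gene ends are described here as lower and upper by coordinate, and summits were not placed in exons, introns, or UTRs.

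All 13 summits inside Trl lay in the upper part of the gene. The first 7152 bp from the lower boundary, 54.5% of the gene, held none. The strongest summit of Trl was at 14756538, 8609 bp from the lower and 4511 bp from the upper boundary, with a score of 176.5, and it is the only summit of its peak. It lies just past the top 10% mark, higher than 90.1% of all summits, and also within CG42507. The next highest, 14755284, had a score of 122, followed inside the gene by 14760168 with 64.1 and 14757393 with 58.3. The remaining summits inside Trl had scores from 11.5, at 14758212, to 46.3, at 14759356. No summit of Trl had a score under 10, whereas psq had 7 of 42, lola 12 of 52, and lolal 1 of 7. Such scores were common in the list, where 8.40 was higher than 31.4% of all summits and 10.4 higher than 35.3%.

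The summits of Trl fell into 5 peaks, of which 4 had more than 1 summit. A peak of 3 summits spanned 14755081 to 14755618, the lone summit followed, a peak of 4 spanned 14757393 to 14758212, and a peak of 5 spanned 14759134 to 14760168. The last peak, with 2 summits, was outside the gene. Its summits, 14761861 with a score of 52.3 and 14761994 with 88.3, lie in the 183 bp between Tsen34 and Mgat4a, a glycosyltransferase gene. They are 17 bp from Tsen34 and 34 bp from Mgat4a, but 812 and 945 bp from Trl. No summit of the list was within 500 bp of a Trl boundary, whereas each of the other 3 genes had at least 1, as did 60.0% of protein-coding genes. Of the 15 summits in the Trl window, 6 are also covered by CG42507, and the list cannot assign them to either gene.

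The Trl summits had a long stretch without a listed summit on either side. The nearest summit below them was at 14714401, inside ome and with a score of 12.9, which leaves 40680 bp without a summit. Of 39447 spacings between neighboring summits on the 6 arms, 98.6% were shorter. Above them the next summit was at 14775979, in mop, 13985 bp away, and 95.1% of spacings were shorter than this one. These spacings include those between summits of the same peak, so neither share is a rank among gaps between peaks. In number, 543 spacings were at least as long as the lower stretch and 1922 as the upper one. Gaps between peaks were not ranked on their own. Between 14755081 and 14761994 were 15 summits of 5 peaks in 6913 bp, with no summit listed in the stretches on both sides.

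**Figure D1:**
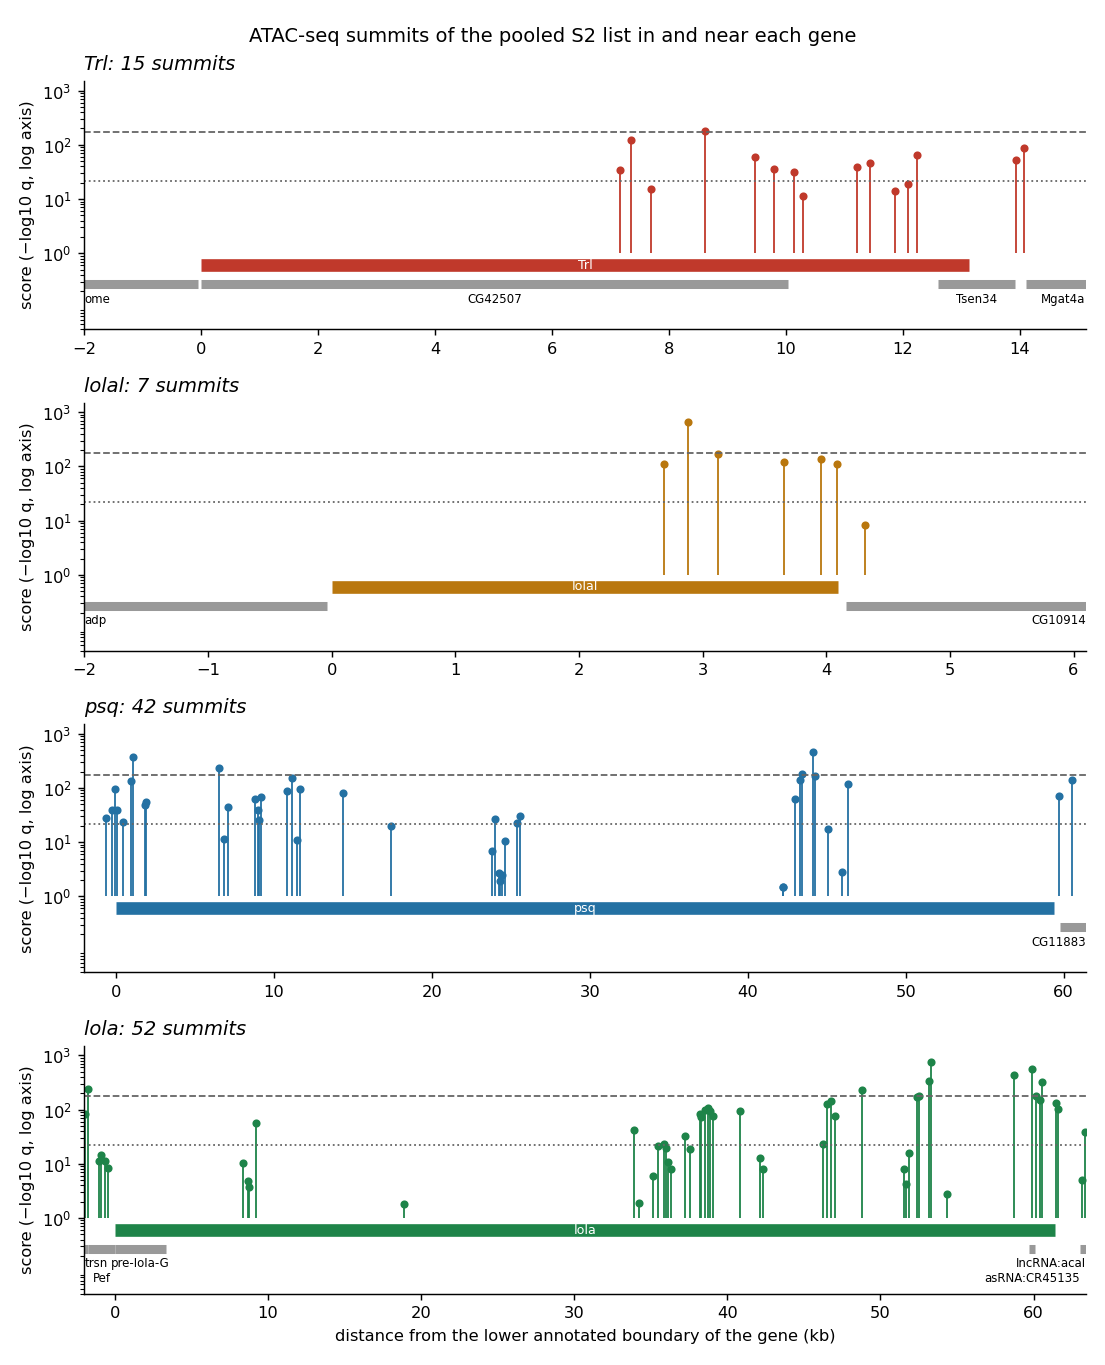
Summits of the pooled list in the window of each gene, by distance from the lower annotated boundary (kb) and score (−log10 q, log axis); each stem is 1 summit. Colored bars are the genes, gray bars other annotated genes except the small RNA genes nested in lola, the dotted line is the list median (21.9), and the dashed line marks the top 10% (175). In Trl and lolal the summits inside the gene lie in its upper part, and in lola the highest lie toward the upper boundary.

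lolal is the shortest of the 4 genes, 4098 bp on arm 2R from 18154095 to 18158192, with 8 transcripts. It is tightly packed between adp, whose boundary is 34 bp below it, and CG10914, which begins 64 bp above it. Its 7 summits belong to 1 peak, and 6 of them are inside the gene. The strongest was at 18156978, with a score of 658, 1214 bp from the upper boundary and higher than 99.4% of all summits. Its score was 3.81 times that of the next, at 18157221 with 172.6, and 49.9% of the summed scores of the 7 summits. Scores are −log10 q values, so neither figure is a ratio of ATAC-seq signal.

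The other summits inside lolal were close to each other in height. Their scores were 111.6 at 18156785, 119 at 18157752, 136 at 18158053, and 113 at 18158179, the last 13 bp from the upper boundary. The summit in the upper flank, at 18158406 and within CG10914, had a score of 8.23, the lowest of the peak. As in Trl, the lower part of the gene was empty: the first 2690 bp, 65.6% of its length, held no summit, and neither did the 2000 bp below it, which adp covers. A peak with 7 or more summits was not common in the list, where 6.16% of the 15615 peaks had as many.

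psq spans 59393 bp on arm 2R from 10557888 to 10617280, with 15 transcripts. No other annotated gene covers a summit inside it. It had 37 summits inside, 3 in the lower and 2 in the upper flank, in 15 peaks, and their scores had a lowest value of 1.51, a median of 42.2, and a highest of 452. The summits formed a group near the lower boundary, a weak group further in, and a strong group in the upper part of the gene.

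At the lower boundary of psq, a peak of 6 summits ran from 10557674 to 10558973. The summit nearest the boundary, 74 bp outside the gene, had a score of 96.3, and the strongest of the peak was 1085 bp inside, at 10558973, with 378.5. Further in, 10564411 had a score of 238 and 10569053 one of 151. The first 14848 bp of the gene held 18 summits with a median score of 59.4, and the next 14848 bp held 9 with a median of 10.6 and none above 29.8.

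A stretch of 16637 bp followed, from 10583465 to 10600102, with no summit. It covers 28.0% of psq and is its longest. The strongest summit of the gene came after it, at 10602009, with a score of 452, 15271 bp from the upper boundary. Near it were 10601300 with 177.4, 10602157 with 165.3, and 10601188 with 140. The lowest scores of psq, 1.51 and 1.52, were in the same part of the gene, at 10600146 and 10600102, so strong and barely listed summits stood less than 2 kb apart. The last 13040 bp of psq, above 10604240, held no summit. The 2 summits in the upper flank are nearer to CG11883, which begins 381 bp above psq: 10617610, with 69.7, is 52 bp from its boundary, and 10618445, with 139.5, is inside it.

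lola, 61398 bp on arm 2R from 10481894 to 10543291, is listed with 25 transcripts, the most of the 4 genes. It had 42 summits inside, 6 in the lower and 4 in the upper flank, in 16 peaks. The lowest score was 1.79, the median 40.2, and the highest 744. The scores were unevenly placed. The lower 30699 bp of the gene held 5 summits, with a median of 4.85 and none above 57.0, and the upper 30699 bp held 37, with a median of 74.6.

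The strongest summit of lola and of all 4 genes was at 10535185, with a score of 744, 8106 bp from the upper boundary and higher than 99.5% of the list. The neighboring summit, at 10535062, had 335, and both belong to a peak of 7 summits that starts at 10533403 with a score of 8.16. Nearer the upper boundary, 10541778 had 559, 10540605 had 435, and 10542433 had 326. The first of these is also covered by the antisense RNA gene asRNA:CR45135, so it cannot be assigned to lola alone. The last 15350 bp of lola, with 18 summits, had a median of 160.

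The 15350 bp before these held 19 summits of moderate height, with a median of 23.4 and none above 108. They include the peak with the most summits in the 4 genes, 8 between 10519102 and 10520935. The longest stretch without a summit, 15015 bp, ran from 10500757 to 10515772, and the summit at its lower end was the weakest of the gene. The 4 snoRNA genes nested in lola held 0 summits, and the nearest, at 10536208 and 287 bp away, had a score of 2.72. Beside the upper boundary, 88 and 203 bp outside the gene, were summits with scores of 130 and 102. In the lower flank, which is filled by Pef and the end of trsn, the strongest summit was at 10480150 with 241, 13 bp from Pef and 1744 bp from lola.

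Because lola and psq are neighbors, the 14596 bp between them could be read as well. That interval held 18 summits, of which 7 are within 2000 bp of either gene and 11 are not. The 11 had scores from 3.46 to 161, and some lie in lncRNA:acal, which runs from 10544925 to 10547260. The limit of 2000 bp cut through a peak there: the summit at 10545282, 1991 bp above lola, was counted with a score of 38.2, and the next of the same peak, at 10545557 and 2266 bp away, was not, with 109. Just outside the windows were also 10555407, 2481 bp below psq, with 155.5, and, on either side of lolal, 18151843 in adp with 164 and 18160600 with 398.

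Across the 4 genes, summit scores were above the list median in 77 of 116 cases, or 66.4%, against 50% of all summits by definition. By gene this was 85.7% in lolal, 73.3% in Trl, 71.4% in psq, and 57.7% in lola. In the top 10% were 15 of the 116 summits, or 12.9%, close to the 10.0% of the list: 9 in lola, 4 in psq, and 1 each in Trl and lolal. The median scores of Trl (39.7), psq (42.2), and lola (40.2) were close, and that of lolal was 119. The first 3 were close only with all summits of the window: with scores of at least 10 they were 39.7, 62.1, and 81.8, and within 500 bp of the gene 35.4, 42.2, and 57.0. Over protein-coding genes with a summit, the median of such medians was 34.5, itself above the list median. Of these genes, 53.9% had a lower median than Trl, 55.5% than psq, 54.3% than lola, and 86.0% than lolal. Against genes of similar length the shares were 56.2%, 72.1%, 70.9%, and 84.8%. By this measure Trl, psq, and lola were near the middle of all genes. Within 1 gene summits share peaks and are not replicates, so these counts describe the genes and were not tested.

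**Figure D2:**
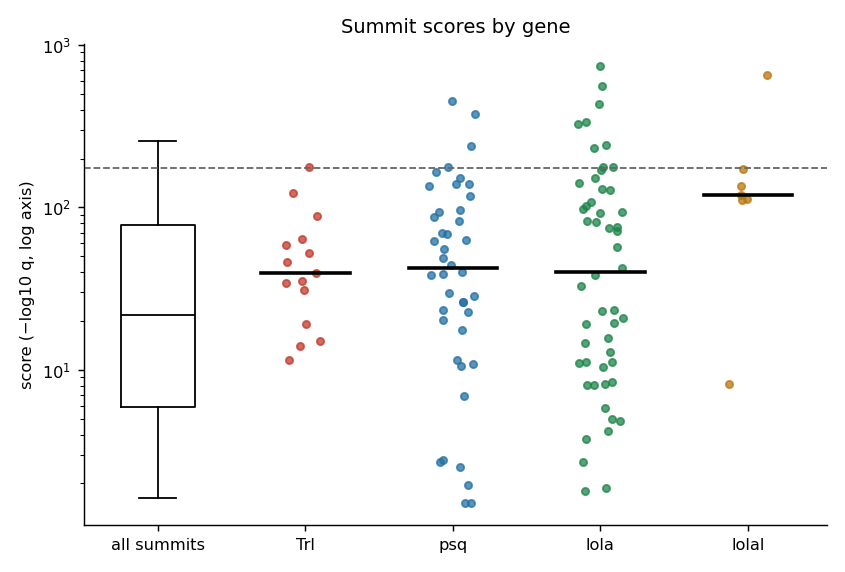
Scores of all summits in each gene window (−log10 q, log axis); each point is 1 summit and thick bars are medians. The box shows all 39806 summits (median and quartiles, whiskers at the 5th and 95th percentiles) and the dashed line the top 10% mark. Median scores of Trl, psq, and lola lie near 40, while their highest values range from 176.5 to 744.

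Summits close together in 1 peak were the usual form. Of the 37 peaks in the windows, 4 of 5 in Trl, 12 of 15 in psq, 11 of 16 in lola, and the only one in lolal had more than 1 summit, against 57.5% of all peaks. The median distance between neighboring summits was 235 bp in lolal, 287 bp in lola, 327 bp in psq, and 332 bp in Trl, against 357 bp over the list. Values for the 4 genes leave out distances to summits outside the window, and the list value keeps all distances, so they are not fully alike. Among the 1423 protein-coding genes with at least 6 summits inside, 29.4% had a stretch without a summit that covered 50% or more of the gene. Trl and lolal were among them, and psq and lola, at 28.0% and 24.5%, were not.

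Counts of summits depend on gene length, so they were divided by the length of the window. Trl had 0.876 summits per kb, lolal 0.864, lola 0.795, and psq 0.663, against a median of 0.364 over protein-coding genes. Each is higher than in most genes: 77.8% of protein-coding genes had a lower density than Trl, 77.3% than lolal, 74.5% than lola, and 68.1% than psq. Shares and medians of density count genes with no summit as 0, whereas the shares of genes with a lower score leave them out. None of the 4 reached 1 summit per kb in this window, as 18.3% of protein-coding genes did, but lolal had 1.37 with a limit of 500 bp and 1.46 inside the gene alone. With 1 summit per peak, the densities fell to between 0.123 in lolal and 0.292 in Trl. None of these alternative densities was set against all genes measured the same way. Among the 1012 genes of at least 20 kb, which have a median of 0.165, lola was above 88.7% and psq above 83.2%. In number of summits, 49 of the 13922 genes, lola included, had 52 or more, and 74 had at least the 42 of psq. All 4 genes had a summit in their window, as did 72.8% of protein-coding genes.

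The strongest summit was in the top 10% of the list in 4 of 4 genes, against 27.2% of protein-coding genes. Long genes have more summits and pass this mark more often. It was passed by 22.9% of genes under 5 kb, the class of lolal, by 39.0% of genes from 5 to 20 kb, the class of Trl, and by 42.8% of genes of at least 20 kb, the class of psq and lola. Among genes with a summit in the same length class, the strongest score was lower than that of lolal in 99.3%, of lola in 95.9%, of psq in 87.3%, and of Trl in 54.8%. GAF's own gene therefore ranked near the middle of its class in height, and lolal and lola near the top.

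In all 4 genes the strongest summit was inside the gene and more than 500 bp from both annotated boundaries. This was so in 11.1% of the 10132 protein-coding genes with a summit. The share rises with length, from 3.02% of genes under 5 kb to 23.1% of genes from 5 to 20 kb and 49.1% of genes of at least 20 kb, so that for psq and lola it was a common arrangement and for lolal an uncommon one. The boundaries are the outermost of all transcripts, and starts of shorter transcripts inside these genes were not used here. The other RNAi targets of the study, both in the 5 to 20 kb class of Trl, differed from Trl in this respect. At E(bx), which encodes NURF301, the strongest of 8 summits had a score of 238 and was 143 bp from a boundary. At Bap170, a subunit of the PBAP remodeler, the strongest of 13 had a score of 384 and was 90 bp outside the gene. In density, Bap170 had 1.32 summits per kb, more than each of the 4 genes, and E(bx) 0.471, fewer than each.

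**Figure D3:**
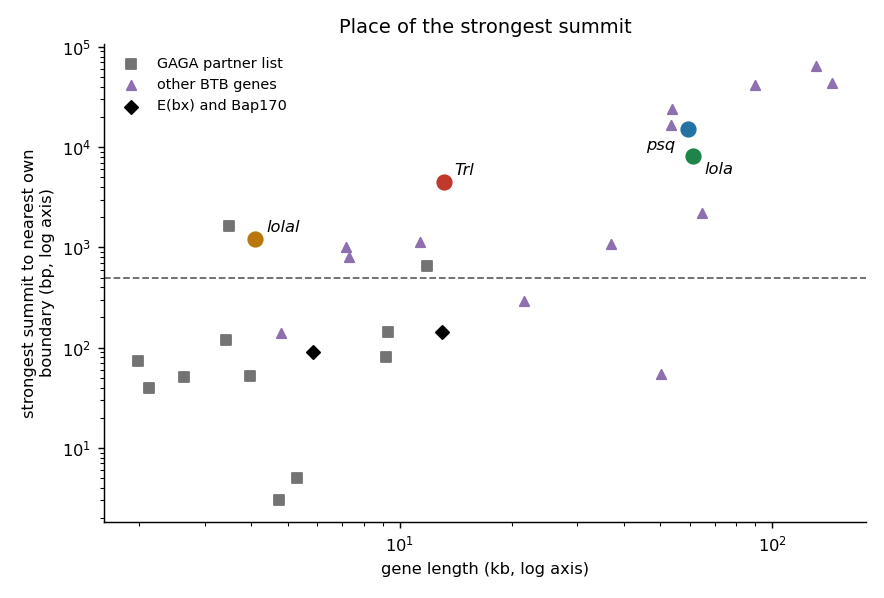
Distance from the strongest summit of each gene window to the nearest boundary of the gene (bp, log axis) by gene length (kb, log axis), for Trl, psq, lola, lolal, and the compared genes; points can lie inside or outside the gene. The dashed line is at 500 bp. The 4 genes lie between 1214 and 15271 bp, and E(bx) and Bap170 at 143 and 90 bp.

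Other BTB genes gave a range in which these values can be read. Of 14 listed, 13 matched by symbol, and pfk did not. All 13 had a summit in their window, with a median density of 0.568 summits per kb, lower than in each of Trl, psq, lola, and lolal. They run from 4810 to 144412 bp, with a median length of 50403 bp, longer than Trl and lolal. Median density over protein-coding genes was 0.165 for those of at least 20 kb, 0.392 from 5 to 20 kb, and 0.379 under 5 kb. The difference in density was not tested. The highest densities were 1.79 at ken, 1.29 at ttk (tramtrack, a zinc finger repressor), and 0.873 at bab1 (bric à brac, a limb patterning factor), and the lowest 0.121 at mamo, 0.138 at lov, and 0.196 at rib (ribbon, needed for tracheal branching). Their strongest scores had a median of 270, and 8 of 13 were in the top 10%. Over protein-coding genes this share was 27.2%, and over those of at least 20 kb 42.8%. The highest BTB score, 705 at lov, was below the 744 of lola. The strongest summit was inside and more than 500 bp from both boundaries in 8 of the 13. This was so in 11.1% of protein-coding genes with a summit, and in 49.1% of those of at least 20 kb. Of the 10 BTB genes with at least 6 summits inside, 1, ken, had a stretch without a summit over 50% of the gene or more. The share over protein-coding genes with at least 6 was 29.4%.

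Genes for GAF partners, other GAGA-binding or Polycomb group proteins, and remodelers made up a second list. The 11 genes of this list had a median density of 0.404, against 0.364 over protein-coding genes. This median was lower than the density of each of Trl, psq, lola, and lolal. The highest were corto (1.13), whose product binds GAF and which was denser than each of these, and polybromo (0.646), a PBAP subunit. The lowest were Iswi (0.251), the ATPase of NURF, and Ssrp (0.301), a subunit of the histone chaperone FACT. The strongest summit was inside and more than 500 bp from both boundaries in 1 of the 11, e(y)3, against 11.1% of protein-coding genes with a summit. It was in the top 10% of the list in 6, against 27.2% of protein-coding genes. Over genes under 5 kb these shares were 3.02% and 22.9%. Each of the 11 had a summit within 500 bp of a boundary, as did 60.0% of protein-coding genes, which Trl did not have. The 11 genes run from 1989 to 11822 bp, with a median length of 3958 bp, close to the 4098 bp of lolal. The difference from Trl, psq, lola, and lolal was not tested.

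**Figure D4:**
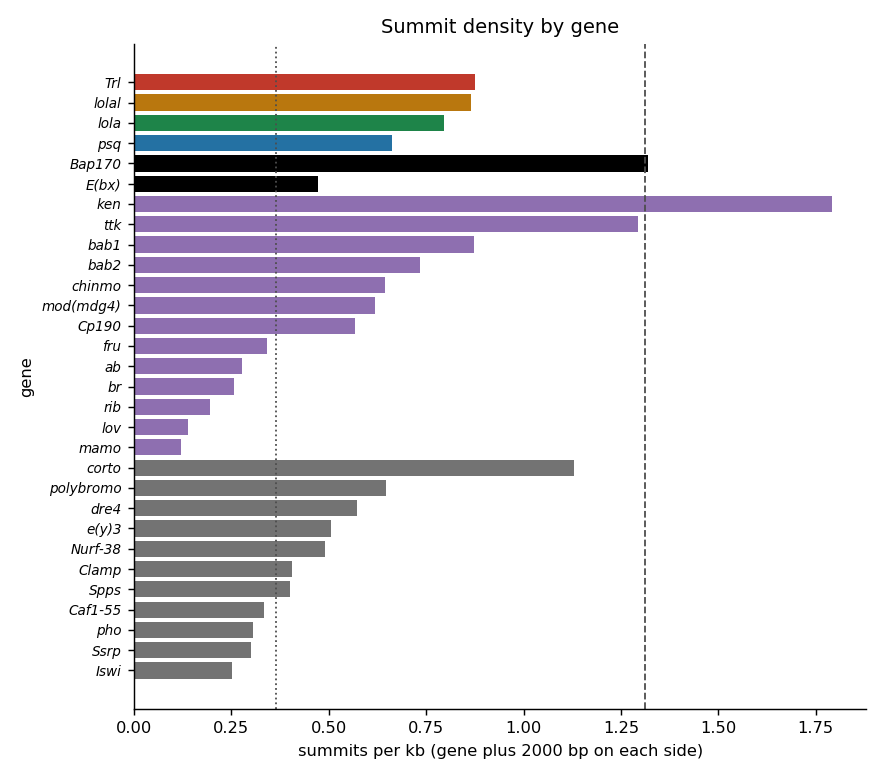
Summits per kb in each gene window (gene plus 2000 bp on each side) for Trl, lolal, lola, and psq (colored), Bap170 and E(bx) (black), other BTB genes (purple), and the list of GAF partners and related genes (gray). The dotted line is the median of 13922 protein-coding genes (0.364) and the dashed line their 90th percentile (1.31). The 4 genes lie between 0.663 and 0.876.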

How the data were processed

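ATAC-seq was done by the authors on 10 S2 cell libraries, and they deposited 1 list of 39806 summits in 15615 peaks, called on all libraries together. The deposited score is the −log10 q value of the peak caller. Bowtie2 2.3.5.1, DESeq2 1.26.0, MACS2 2.1.0.20150731, and deepTools 3.1.3, with the build dm6, are credited to the submitters' processing notes. The role of each tool, the read filters, and any Tn5 offset of the reads were not given in the sources used here. The lowest score corresponds to a q value of 0.0500.

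Summit positions (1-based) were matched to RefSeq gene boundaries of the same assembly. Windows were the gene plus 2000 bp on each side, and "near" a boundary means within 500 bp. Densities, percentiles (the share of features with a lower value), and shares over 13922 protein-coding genes were computed with Python 3.11.15, numpy 2.4.6, and pandas 2.3.3, and plots with matplotlib 3.10.9. Counting was tested on simulated data. No test was made, because 1 pooled list holds no replicates.

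Named genes were Trl, psq, lola, lolal, genes beside their summits, E(bx), Bap170, the 3 densest and 3 sparsest of the BTB list, and the 2 densest and 2 sparsest of the partner list (Clamp, corto, Spps, pho, Ssrp, dre4, Iswi, Nurf-38, Caf1-55, polybromo, e(y)3). Genes and lists were chosen with earlier results of these data known, and the place of the strongest summit, the stretches without a summit, the distance to the next summit, and the length classes after their values were seen. Outside this rule, e(y)3 and mop were named after their values were seen. Motif and protein comparisons were planned but not run, since no sequences were used here. Alternatives were a limit of 500 bp, summits inside the gene only, the strongest summit of each peak, and scores of at least 10.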

Additional observations from a re-analysis of the deposited data

How the results depend on the processing

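No paired analysis was possible because the list pools all libraries and carries no replicate number. For the same reason no library could be left out. With summits up to 500 bp beyond the gene or inside it only, counts stayed within 1.5 times of those reported, and lolal rose to 1.37 and 1.46 summits per kb. Keeping 1 summit per peak, the strongest, counts were 5 in Trl, 15 in psq, 15 in lola, and 1 in lolal, the densities 0.292, 0.237, 0.229, and 0.123 per kb, and the median scores 88.3, 82.3, 108, and 658, so the order of the genes by density and by median score changed. With scores of at least 10, the median was 81.8 in lola and 62.1 in psq. The strongest score of each gene was the same under all 4 alternatives, but none of these could change it. Each such summit is inside its gene, is the strongest of its peak, and has a score over 10. Against genes of at least 20 kb in place of all protein-coding genes, 6.52% had 1 summit per kb or more and 42.8% a strongest summit in the top 10%. Of 68 planned comparisons of this kind, 17 moved by more than 1.5 times and 51 did not. The planned GAGAG motif search was not run. The 51 include those of the strongest score, which could not move. Within genes of at least 20 kb, a comparison chosen after seeing the data, the share of genes with a lower strongest score went from 99.2% to 95.9% for lola and from 95.5% to 87.3% for psq, and the share with a lower density from 74.5% to 88.7% and from 68.1% to 83.2%. Depth is unknown, so weak summits cannot be given an error.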
